A study of Mus musculus with 2 samples.

Results

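The genes described here are 10 heat shock genes of the cytosol and of the mitochondrial matrix: Hsp90aa1, Hsp90ab1, Hspa8, Hsph1, Hspd1, Hspe1, Dnajb1, Dnaja1, Hspa1a and Hspa1b. They were taken by symbol from a list that was set with earlier results of these data known. Each symbol matched 1 feature, and these genes are 10 of the 32285 listed. The data are 3′ transcript counts of single cells of E14, an established mouse embryonic stem cell line of 129/Ola background kept in serum with leukaemia inhibitory factor (LIF). The library named control came from cells lipofected with a control siRNA, and the library named sonKD came from cells lipofected with siRNA against Son, the gene of a nuclear speckle protein that binds RNA and helps splicing. Both were harvested 24 hours after transfection, then frozen, thawed and sorted on the viability dye 7-AAD before 10x Genomics Chromium 3′ v3 barcoding. All cells of both groups therefore went through transfection, trypsin, freezing and thawing, and untransfected or unfrozen cells were not analysed here. Each group held 1 library, so no difference below has a replicate check, no test was made, and an effect of the siRNA and a difference between libraries cannot be told apart.

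Heat shock proteins are chaperones: they bind unfolded or partly folded proteins, many of them with the use of ATP, and help them reach or regain their native form. In the cytosol, HSP70 proteins take clients from J-domain proteins, are recharged by exchange factors such as HSP110, and pass some clients on to HSP90, while HSP60 and its lid HSP10 form a folding chamber in the mitochondrial matrix. Some members are made at a high level in all growing cells, and others, above all Hspa1a and Hspa1b, are classical targets of the heat shock factor HSF1, which binds inverted repeats of GAA (heat shock elements) when unfolded proteins accumulate.

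Cells were barcodes with at least 2500 UMIs (unique molecular identifiers, each marking 1 captured molecule), at least 1000 genes and at most 10% UMIs from mitochondrial genes. There were 4978 such cells in control and 2731 in sonKD, with 40902904 and 32032551 UMIs and medians of 7737.5 and 11612 UMIs per cell. A further 625 and 1056 barcodes of the same depth were over 10% mitochondrial UMIs. Ribosomal protein genes took 20.7% and 24.1% of UMIs, and 2 cell barcodes occurred in both libraries. Son stood at 168.5 CPM (counts per 1000000 UMIs) in control and 105.7 CPM in sonKD, a log2 ratio of -0.67 (95% interval -0.73 to -0.61). All 13 pluripotency markers listed passed 10 CPM on average, among them Dppa5a at 5027 and 6075 CPM and Prdm14 at 13.1 and 10.3 CPM. The 8 fibroblast markers summed to 4.60 and 4.71 CPM, with Lum, Postn and Col3a1 at 0 UMIs in both, the 7 trophectoderm markers to 10.1 and 12.7, the 9 of primitive endoderm to 57.8 and 46.0, and the 6 of neuroectoderm to 61.8 and 57.6. Throughout, intervals are exact at 95% and cover counting error only, and ratios are sonKD over control. A 3′ library counts 1 tag per molecule, so levels of different genes are compared without a length correction.

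Heat shock elements are the known mark of HSF1 targets, and the members' upstream sequences are therefore given before their levels. RefSeq promoters (GRCm38.p6) were at hand for 7 of the 10 members, at 12 start sites, and Hsp90aa1, Hsp90ab1 and Hspa8 were not searched. The 250 bases before each start were searched on both strands for the 2-unit element GAANNTTC or TTCNNGAA, which may overlap. A 2-unit element occurred before at least 1 start of 6 of the 7 members, against 14.5% of 27025 genes counted in the same way and 12.8% of 32851 single promoters of the same length. A 3-unit element, GAANNTTCNNGAA or TTCNNGAANNTTC, which contains 2-unit ones, occurred for 2 members, Hspd1 and Hspe1, against 0.514% of genes. The matches of Hspd1 and Hspe1 are the same bases, and Hspa1a and Hspa1b have nearly identical regions. The members counted are thus not independent occurrences. CCAAT was found for 5 members (37.5% of genes) and TATAAA for none (14.3%). A match describes letters, not a bound site.

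Hspd1 and Hspe1 start back to back on chromosome 1 of GRCm38. The 215 bases between the start of Hspe1 and a downstream start of Hspd1 hold 2 overlapping 3-unit elements. These stand 71 bases before the Hspe1 start and 126 before that Hspd1 start. A 30-base window on them is printed because both genes of the mitochondrial pair share it upstream, and capitals mark the element letters. The window lies on the plus strand at chr1:55088053-55088082, inside an annotated exon of Hspd1.
Hspe1 and Hspd1 shared window: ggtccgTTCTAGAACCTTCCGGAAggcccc

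Hspa1a and Hspa1b are single-exon genes next to each other on chromosome 17. Their 250 bases before the start are printed whole because the pair had the lowest counts of the 10 genes and because the regions are so alike: 247 of 250 bases, or 98.8%, were identical. The minus strand is given in both, from chr17:34972157-34972406 for Hspa1a and from chr17:34959239-34959488 for Hspa1b, with the 2-unit element in capitals.
Hspa1a: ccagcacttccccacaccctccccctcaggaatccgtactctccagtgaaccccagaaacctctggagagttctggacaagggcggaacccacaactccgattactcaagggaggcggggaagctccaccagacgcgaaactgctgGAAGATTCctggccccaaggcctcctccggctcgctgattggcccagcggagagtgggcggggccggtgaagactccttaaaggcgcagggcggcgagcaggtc
Hspa1b: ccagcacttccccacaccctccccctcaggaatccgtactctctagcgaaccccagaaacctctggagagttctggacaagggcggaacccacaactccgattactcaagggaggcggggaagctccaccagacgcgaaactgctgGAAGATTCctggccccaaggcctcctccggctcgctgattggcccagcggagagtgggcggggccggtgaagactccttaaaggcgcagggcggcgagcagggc
Counted from 1 at the 5′ end of the printed strand, and with the Hspa1a base first, they differed by C44T, T47C and T249G. None of the 3 positions lies in the element.

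Hsph1 had 1 element, which lay before both of its starts. Dnaja1 had 1 before the most upstream of its starts and none before the others. Both elements are shown for comparison with the element of Hspa1a. The Hsph1 window is on the minus strand at chr5:149636351-149636380 and the Dnaja1 window on the plus strand at chr4:40722333-40722362; both overlap annotated exons of their genes.
Hsph1: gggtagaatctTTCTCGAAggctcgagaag
Dnaja1: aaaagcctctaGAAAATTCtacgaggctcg
Dnajb1 had no element before either of its 2 starts and 1 CCAAT.

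The 10 genes spanned 4 orders of magnitude, and their order was the same in both libraries, with overlapping intervals between neighbours for Hspa1b and Hspa1a alone. Together they held 21601 CPM in control cells and 19601 CPM in sonKD cells, which is 90.7% of control and a log2 ratio of -0.14 (-0.145 to -0.135). Of the 8 members with a mean of at least 10 CPM, 7 were lower in sonKD and 1 was higher. So were most genes: 74.9% of the 8063 genes at that level were lower, with a median of -0.12, and the median of the 8 members was -0.12 as well. None of the 8 passed a log2 ratio of -0.25, against 20.1% of all genes, and none passed 0.25, against 5.07%. The members thus lay inside the bulk of all ratios, with 4 below and 4 above the median of all genes. Other scalings (TMM factors, median of ratios, or totals without mitochondrial and ribosomal protein genes) moved the median of all genes up by 0.090, 0.085 and 0.074, so that 56.6%, 57.7% and 60.3% of genes were lower and the members split into 5 lower and 3 higher, with Hspa8 and Hsph1 now higher.

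**Figure D1:**
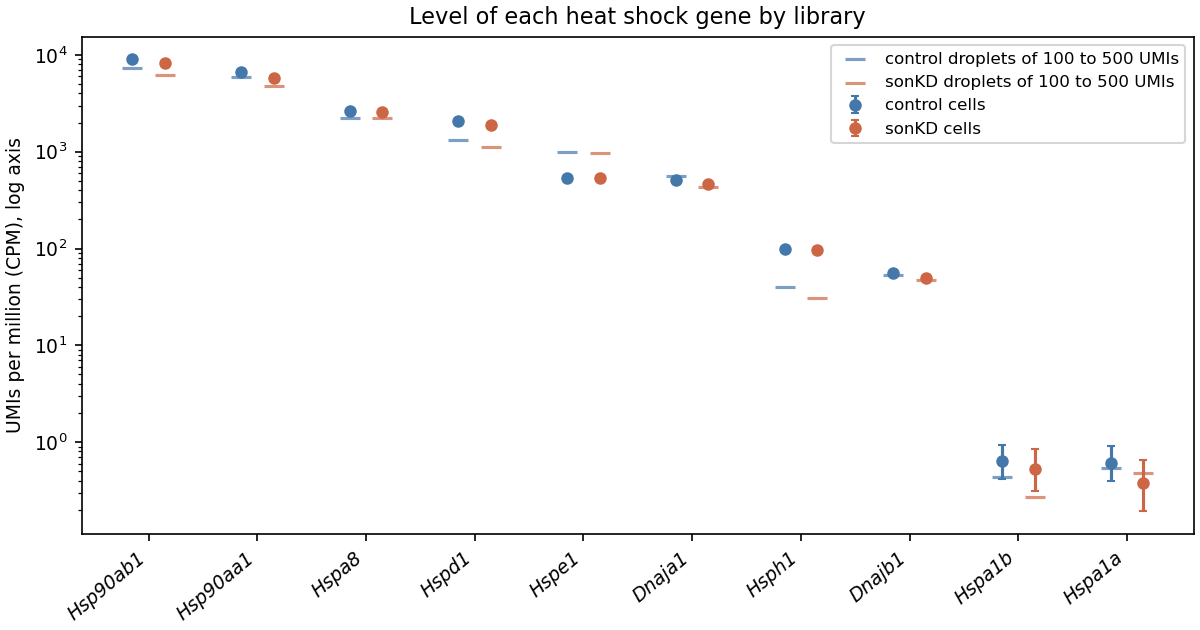
Level of each member in CPM (log axis) in control and sonKD cells (points, with 95% counting intervals) and in droplets of 100 to 500 UMIs of the same libraries (dashes). Hsp90ab1 and Hsp90aa1 lead at 5772 to 8982 CPM, and Hspa1a and Hspa1b lie below 1 CPM. Hspe1 is the member whose droplets lie clearly above its cells in both libraries.

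The HSP90 genes were the highest of the family. Hsp90ab1, the constitutive cytosolic HSP90 (ENSMUSG00000023944; chromosome 17, 45567775 to 45573271, minus strand, 11 exons), had 367400 UMIs in control cells, or 8982 CPM, and 262293 in sonKD cells, or 8188 CPM. It ranked as gene number 2 of all genes in control and 3 in sonKD, and a UMI of it was found in 100% of cells of both. Its log2 ratio was -0.13 (-0.14 to -0.13), the percentile 45.5 among the 8063 genes. Hsp90aa1, the stress-inducible cytosolic HSP90 (ENSMUSG00000021270; chromosome 12, 110690605 to 110702728, minus strand, 11 exons), stood at 6671 CPM in control cells against 5772 CPM in sonKD. Its log2 ratio of -0.21 (-0.22 to -0.20) was the lowest of the 8 members above 10 CPM, and lay at percentile 27.9 of all genes. The interval of Hsp90aa1 lay below that of Hsp90ab1, so the pooled ratios of the 2 HSP90 genes differed by more than counting error. The order did not hold throughout: in cells of 2500 to 5000 UMIs Hsp90aa1 stood at -0.09 and Hsp90ab1 at -0.18, and at 7.5 to 10% mitochondrial UMIs they stood at -0.19 and -0.20. Hsp90ab1 took 57.4% of the UMIs of the pair in control and 58.7% in sonKD.

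Hsp90aa1 was lower in sonKD in every depth range of cells and at every mitochondrial share examined, with log2 ratios from -0.26 to -0.09. The ratio closest to 0, -0.09, came from the 514 control and 172 sonKD cells of 2500 to 5000 UMIs. In barcodes over 10% mitochondrial UMIs it was -0.24, and in droplets of 100 to 500 UMIs, taken here as free RNA, -0.29.

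The HSP70 machinery comprised Hspa8, its J-domain partners and the exchange factor Hsph1. Hspa8, the constitutive HSC70 (ENSMUSG00000015656; chromosome 9, 40800984 to 40810087, plus strand, 9 exons), had 2659 CPM in control and 2590 CPM in sonKD, a log2 ratio of -0.04 (-0.05 to -0.02). Under the 3 other scalings the sign turned, to values from 0.036 to 0.052. The pooled ratio also differed from those at like depth: -0.38 in cells of 2500 to 5000 UMIs, -0.15 from 5000 to 10000, -0.12 from 10000 to 20000 and -0.06 from 20000. Hspa8 was thus lower in sonKD in each depth range, beyond counting error in 3 of 4, and by more than in the pool, where sonKD cells were deeper and deeper cells held more of it. All genes also moved: from 10000 to 20000 UMIs their median was -0.18, with 38.0% of genes past -0.25, so Hspa8 lay above the median gene there, and the median of the 8 members was -0.11. In control it stood at 2079 CPM in the shallowest of these ranges and 3002 CPM in the deepest, and in sonKD at 1601 and 2889 CPM.

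Dnaja1, a J-domain protein that hands clients to HSP70 (ENSMUSG00000028410; chromosome 4, 40722150 to 40737149, plus strand, 9 exons), had 505.0 CPM in control and 469.6 CPM in sonKD, a log2 ratio of -0.10 (-0.14 to -0.07). Dnajb1, the HSP40 that works with inducible HSP70 (ENSMUSG00000005483; chromosome 8, 83608193 to 83612653, plus strand, 3 exons), was less abundant, at 55.6 CPM in control cells against 50.0 CPM in sonKD, with a ratio of -0.15 (-0.24 to -0.06). Hsph1, the HSP110 exchange factor (ENSMUSG00000029657; chromosome 5, 149614287 to 149636376, minus strand, 19 exons), had 98.5 and 96.2 CPM, and its interval of -0.10 to 0.03 included 0. The levels of these genes kept the order Hspa8, Dnaja1, Hsph1 and Dnajb1 in both libraries, with intervals that did not overlap.

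Hspa1a and Hspa1b, the inducible HSP70 pair (ENSMUSG00000091971, chromosome 17, 34969190 to 34972156, and ENSMUSG00000090877, chromosome 17, 34956436 to 34959238, both minus strand), were at the edge of detection. Hspa1a had 25 UMIs in all control cells and 12 in all sonKD cells, or 0.611 and 0.375 CPM. Hspa1b had 26 and 17 UMIs, or 0.636 and 0.531 CPM. Either gene gave a UMI in 51 of 4978 control cells (1.02%, 0.764 to 1.34) and in 29 of 2731 sonKD cells (1.06%, 0.712 to 1.52), never more than 1 per cell. Droplets of 100 to 500 UMIs held them at 0.545 and 0.436 CPM in control and 0.483 and 0.268 CPM in sonKD. The intervals of cells and droplets overlapped for both genes in both libraries. As the levels were alike, these shares are given as detection near the limit of the data, with no statement on which cells express the genes. With cells thinned at random to 2500 UMIs each, Hspa1a UMIs remained in 0.121% of control and 0.146% of sonKD cells, and Hspa1b UMIs in 0.141% and 0.110%. The log2 ratios, -0.71 (-1.83 to 0.34) and -0.26 (-1.23 to 0.68), are too imprecise for a direction: each interval included 0. Between them, the last 500 bases of transcript shared 0% (Hspa1a) and 2.15% (Hspa1b) of their 31-base words with any other annotated gene, so the 2 genes can be told apart by 3′ reads despite their like promoters. In the cells with such a UMI, Hspa8 stood at 2987 CPM (2819 to 3163) in control, against 2656 in the other cells, and at 2768 CPM (2607 to 2936) against 2588 in sonKD. Hsp90aa1 stood at 6849 CPM against 6670 in control and at 5382 against 5776 in sonKD, on opposite sides. These intervals do not cover the spread between the few cells counted.

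Hspd1 and Hspe1 encode HSP60 and HSP10, the chamber and the lid of the mitochondrial folding machine. Hspd1 (ENSMUSG00000025980; chromosome 1, 55077835 to 55088243, minus strand, 12 exons) had 2092 CPM in control and 1896 CPM in sonKD, and a log2 ratio of -0.14 (-0.16 to -0.13). By depth its ratio was 0.18 in cells of 2500 to 5000 UMIs, -0.38 from 5000 to 10000, -0.16 from 10000 to 20000 and -0.09 from 20000, so it was not lower at every depth. Hspe1 (ENSMUSG00000073676; chromosome 1, 55088132 to 55091307, plus strand, 4 exons) had 536.3 and 538.6 CPM, and its ratio of 0.01 (-0.02 to 0.04) was the highest of the 8 members. The intervals of the 2 genes did not overlap, so the 2 partners differed in ratio by more than counting error. Of the 31-base words in the last 500 bases of Hspe1, 68.5% also occur in other annotated genes, so its count depends on how such reads were assigned. Hspd1 and Hspe1 also overlap on opposite strands, and whether the counting used strand is not given in the sources used here.

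**Figure D2:**
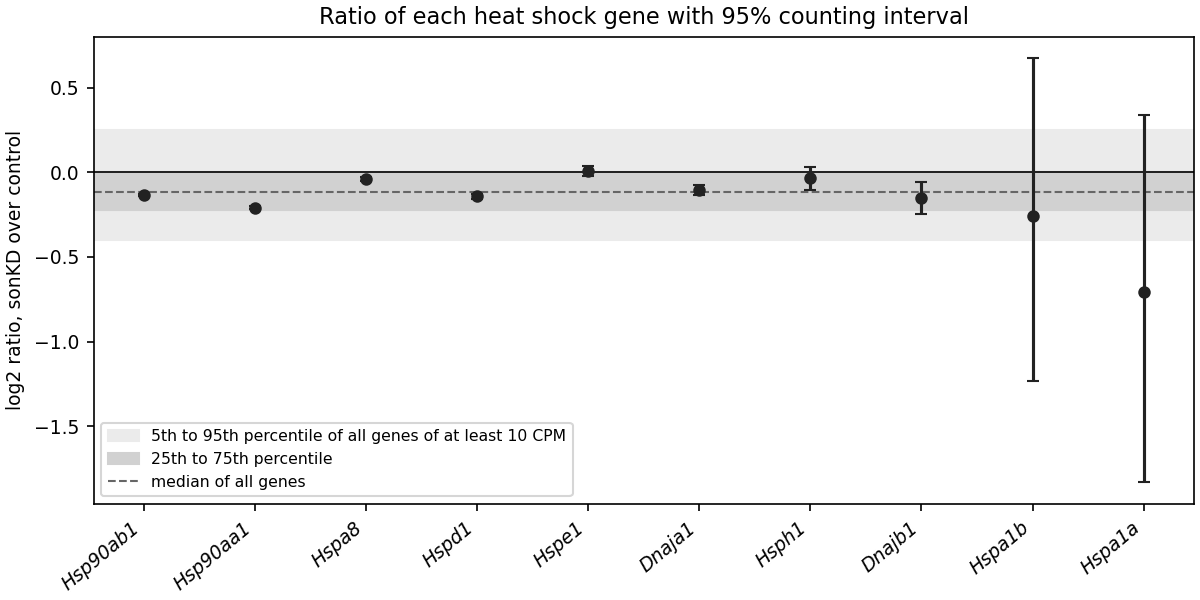
Log2 ratio of sonKD over control for each member, with its 95% counting interval (points and bars). The bands give the 25th to 75th and the 5th to 95th percentile of the 8063 genes of at least 10 CPM and the dashed line their median: 8 members lie inside the wider band, from -0.21 to 0.01, and Hspa1a and Hspa1b have intervals that include 0.

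Other members also share 3′ sequence with further annotated genes, and how the authors' counting assigned such reads is not given in the sources used here. Hspa8 shared 73.4% of the 31-base words of its last 500 bases, above all with the pseudogene Gm15459 (71.8%), Dnaja1 41.4%, Hspd1 40.8%, Hsp90aa1 28.3% and Hsp90ab1 9.67%. For these 5 genes the genes that share words and are listed in the count matrix accounted for at most 0.396%. Hsph1 and Dnajb1 shared none. Dnaja1 further overlaps Smu1 and Gm6297 on the opposite strand, and Hspa1a overlaps Gm20481.

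Cell-to-cell spread was read after each cell had been thinned to 2500 UMIs, which all cells reached. The sum of the 10 genes had a mean of 53.8 UMIs (SD 11.3 over 4978 cells) in control and 48.6 UMIs (SD 10.6 over 2731 cells) in sonKD, and ranged from 36 to 72 and from 32 to 66 between the 5th and 95th percentiles of cells. With the counting part removed, the coefficient of variation (CV) of the sum was 16.1% and 16.5%. The sum therefore varied over cells to a like degree in both libraries, and in every cell it was detected. Most of it came from Hsp90ab1 and Hsp90aa1, with means of 22.6 and 16.7 UMIs in control, so it says little of the other members.

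Among the 4 most abundant members Hspa8 varied most and Hsp90ab1 least. Hsp90ab1 had 22.6 ± 6.15 UMIs per control cell and 20.4 ± 5.67 per sonKD cell (SD over cells), and a CV beyond counting of 17.3% and 16.8%. Hsp90aa1 had 16.7 ± 5.96 and 14.5 ± 5.97, with 26.0% and 31.7%. Hspa8 had 6.44 ± 3.59 and 6.21 ± 3.36, with 39.4% and 36.3%, which lay at percentiles 92.3 and 87.2 among the 52 and 47 genes whose mean was within 1.5 times its own. The constitutive HSC70 gene was thus the more variable one, and the highest single gene the more uniform one, with Hsp90ab1 at percentile 0 and 11.8 among 10 and 17 genes of like mean. Hspd1 had 5.14 ± 2.76 and 4.71 ± 2.60 UMIs, with 30.7% and 30.5%. Dnaja1 had 28.8% and 33.0% around means of 1.22 and 1.17 UMIs. Hspe1, at a nearly equal mean of 1.33 UMIs in both libraries, had only 13.9% and 20.4%. Its percentiles of 5.31 and 23.1 among genes of like mean placed the HSP10 gene on the uniform side, although another random thinning of control moved its squared value from 0.019 to 0.047.

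Hsph1 and Dnajb1 had too few UMIs per cell for a steady value of spread. The CV beyond counting was 43.6% in control and 40.6% in sonKD for Hsph1, and 53.8% and 37.0% for Dnajb1, and the squared value of Dnajb1 in sonKD went from 0.137 to 0.380 with another random thinning. Hsph1 had a UMI in 20.5% of thinned control cells and 19.8% of thinned sonKD cells (50.9% and 60.6% without thinning), and Dnajb1 in 13.7% and 11.9% (34.7% and 42.9%). A Poisson count of the same mean would give 20.9% and 20.1% for Hsph1 and 13.9% and 11.9% for Dnajb1. At such low means this share is nearly fixed by the mean and says little of spread. No thinned cell had more than 4 UMIs of either gene. The top 1% of cells held 2.97% of Hspa8 UMIs in control and 2.75% in sonKD, and 1.65% and 1.67% of the summed UMIs. No small set of cells thus carried Hspa8 or the sum, most of which came from Hsp90ab1 and Hsp90aa1. For Dnajb1 the top 1% held 14.2% and 14.4%, but at so few UMIs per cell this share says little of spread.

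**Figure D3:**
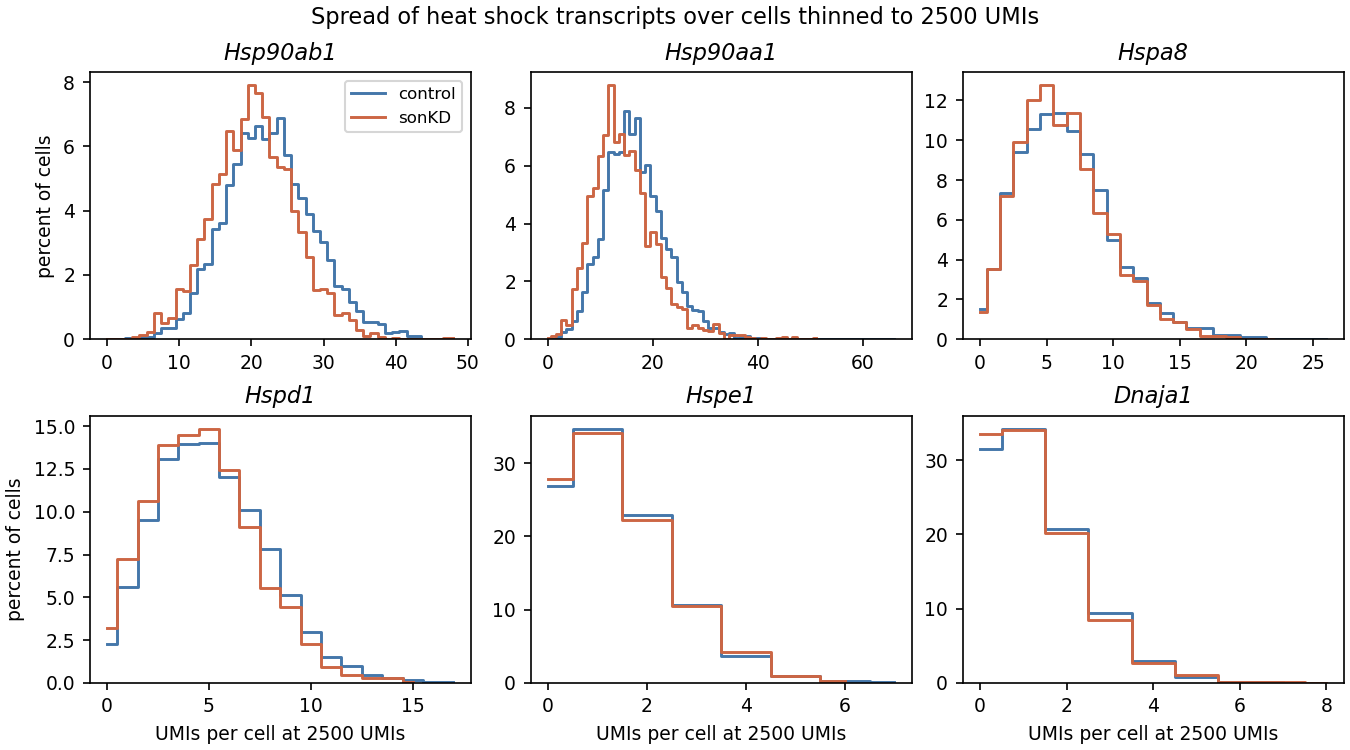
Share of cells (percent) by UMIs of each of 6 members per cell after thinning to 2500 UMIs, for control and sonKD. Each distribution has a single broad peak, the sonKD curves of Hsp90ab1 and Hsp90aa1 are shifted to lower counts, and those of Hspa8, Hspe1 and Dnaja1 nearly coincide.

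Co-variation between members was weak. Over the 28 pairs of the 8 members with at least 0.1 UMI per thinned cell, the median Pearson's r of log counts was 0.046 in control (-0.033 to 0.218 over pairs) and 0.023 in sonKD (-0.056 to 0.182). Between a member and any other of 3653 genes, the median was 0.0013 and 0.0020, and 90% of values lay from -0.043 to 0.045 in control and from -0.044 to 0.050 in sonKD. Cells of 1 library share its preparation, and sampling noise at this depth pulls r of low genes towards 0. The strongest pair was Hsp90aa1 with Hsp90ab1, at 0.218 and 0.182, and for Hsp90aa1 no other of the genes compared had a higher r in control and 1 had in sonKD. Hsp90ab1 with Hspd1 followed at 0.180 and 0.151, a cytosolic and a mitochondrial chaperone gene. Hspa8 with Hspd1 stood at 0.129 and 0.148, and Hspa8 with its J-domain partner Dnaja1 at 0.108 and 0.096. Hspd1 with Hspe1, the back-to-back pair, reached 0.070 and 0.082. Dnajb1 had no pair above 0.01 in either library. The high pairs are thus those of abundant genes. Without cells above 5% mitochondrial UMIs the median over pairs was 0.019 in control and 0.0088 in sonKD, and the highest pair 0.148 and 0.097, so the co-variation was weaker among cells of low mitochondrial share.

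**Figure D4:**
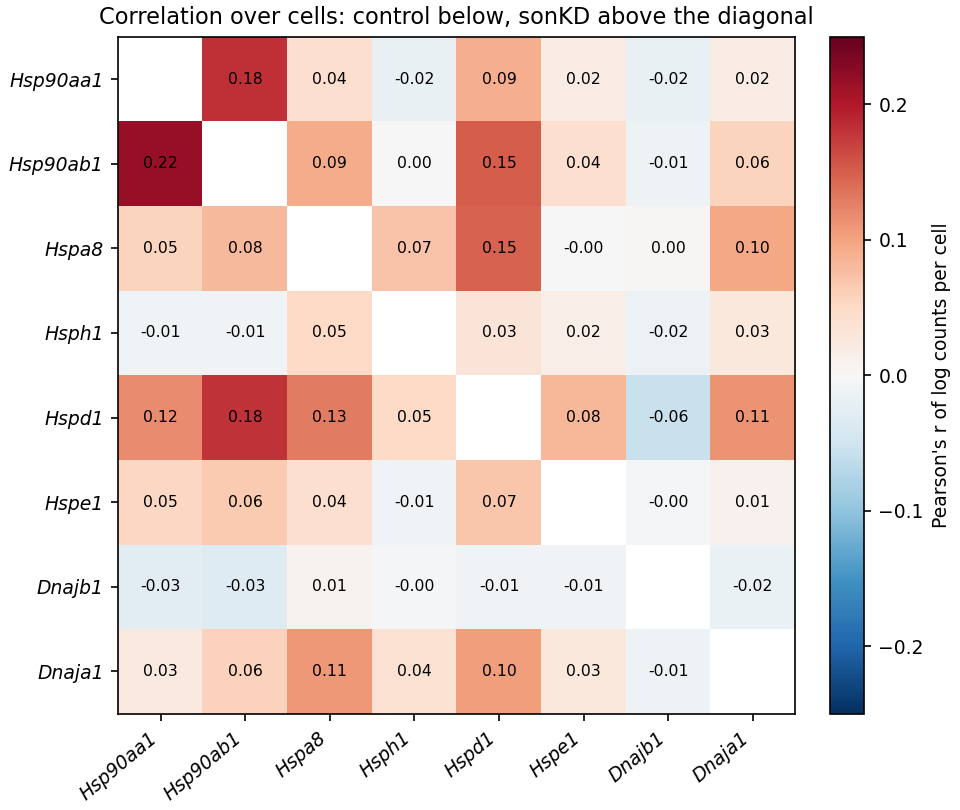
Pearson's r of log counts per cell, thinned to 2500 UMIs, between the 8 members of at least 0.1 UMI per cell, with 4978 control cells below the diagonal and 2731 sonKD cells above it. Hsp90aa1, Hsp90ab1, Hspa8 and Hspd1 form the darker cells at up to 0.22, and the Dnajb1 row and column stay at or below 0.01.

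The genes most like the summed members over cells, among 688 with at least 0.5 UMI per thinned cell, were Npm1 and Ncl, which encode the nucleolar proteins nucleophosmin and nucleolin, at a mean r over both libraries of 0.323 and 0.316. Ptma (prothymosin alpha, 0.282), the histone variant gene H2afz (0.228) and the cytoplasmic actin gene Actg1 (0.200) came next. The lowest were the mitochondrially encoded mt-Co3 at -0.277, mt-Co2 at -0.218 and mt-Atp6 at -0.208. The genes named here had means from 4.23 (Actg1) to 22.7 (mt-Co3) UMIs per thinned control cell. Sampling noise pulls r of less abundant genes towards 0, so both ends of the ranking favour abundant genes. Most of the sum came from Hsp90ab1 and Hsp90aa1. The median of the 688 genes was 0.039, and 90% lay between -0.052 and 0.109.

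Members differed in the cell features they moved with. Hspa8 had an r of 0.23 in control and 0.28 in sonKD with the summed G2/M genes, and went from 2161 CPM in the quartile of control cells with the fewest G2/M UMIs to 2984 CPM in the quartile with the most (1987 to 2952 CPM in sonKD). Hspd1 followed the S phase genes, at 0.25 and 0.30, from 1741 to 2332 CPM in control and from 1534 to 2264 CPM in sonKD, and had an r of 0.26 and 0.24 with the genes of the TRiC chaperonin and prefoldin. Its partner Hspe1 did not do so, with 0.03 and 0.01 for S phase. Hsp90aa1 went from 6905 to 6339 CPM in control and from 5841 to 5524 CPM in sonKD between the outer quartiles of G2/M UMIs, a small change in the direction opposite to Hspa8. Hsp90ab1 differed little, from 9049 to 8823 CPM and from 7983 to 7980 CPM. Hspa8 and Hspd1 also had an r of 0.15 to 0.23 with the depth of the cell before thinning, and Son UMIs had an r between -0.05 and 0.02 with each member.

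The mitochondrial share of a cell went with the level of some members and not of others. From cells with at most 2.5% mitochondrial UMIs to those with 7.5 to 10%, Hspa8 went from 2997 to 1752 CPM in control and from 3006 to 1609 CPM in sonKD. Hspd1 went from 2417 to 1656 and from 2095 to 1421 CPM, and stood higher again, at 2203 and 2021 CPM, in barcodes above 10%. Hsp90aa1 had nearly the same level at both ends, 7034 and 6979 CPM in control and 5872 and 6125 CPM in sonKD. Dnajb1 had 53.0 and 77.5 CPM in control (46.6 and 61.9 in sonKD) and then 27.8 and 33.8 CPM above 10%. The members thus differed in direction over these ranges of cells: Hspa8 and Hspd1 were lower at the higher mitochondrial share in both libraries, Hsp90aa1 was nearly level, and Dnajb1 was higher in control with intervals apart (46.3 to 60.5 and 60.7 to 97.4). These ranges also differed in depth. At most 2.5%, 480 control cells held 4147893 UMIs and 129 sonKD cells 1545342. From 7.5 to 10%, 201 control cells held 942217 UMIs and 151 sonKD cells 936834. Hspa8 also differed by depth, as given above, and depth and mitochondrial share were not separated here. A mitochondrial share is itself part of the total, and its part in the differences between cells was not tested further. The ratio between the libraries was below 0, with its interval, in each of the 4 ranges for Hsp90aa1, Hsp90ab1 and Hspd1. That of Hspa8 lay between -0.12 and 0.05. The point ratio of Dnajb1 was below 0 in each range, but its interval excluded 0 only from 2.5 to 5% (-0.25 to -0.03). Above 10% Dnajb1 stood at 0.28 (-0.19 to 0.76).

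**Figure D5:**
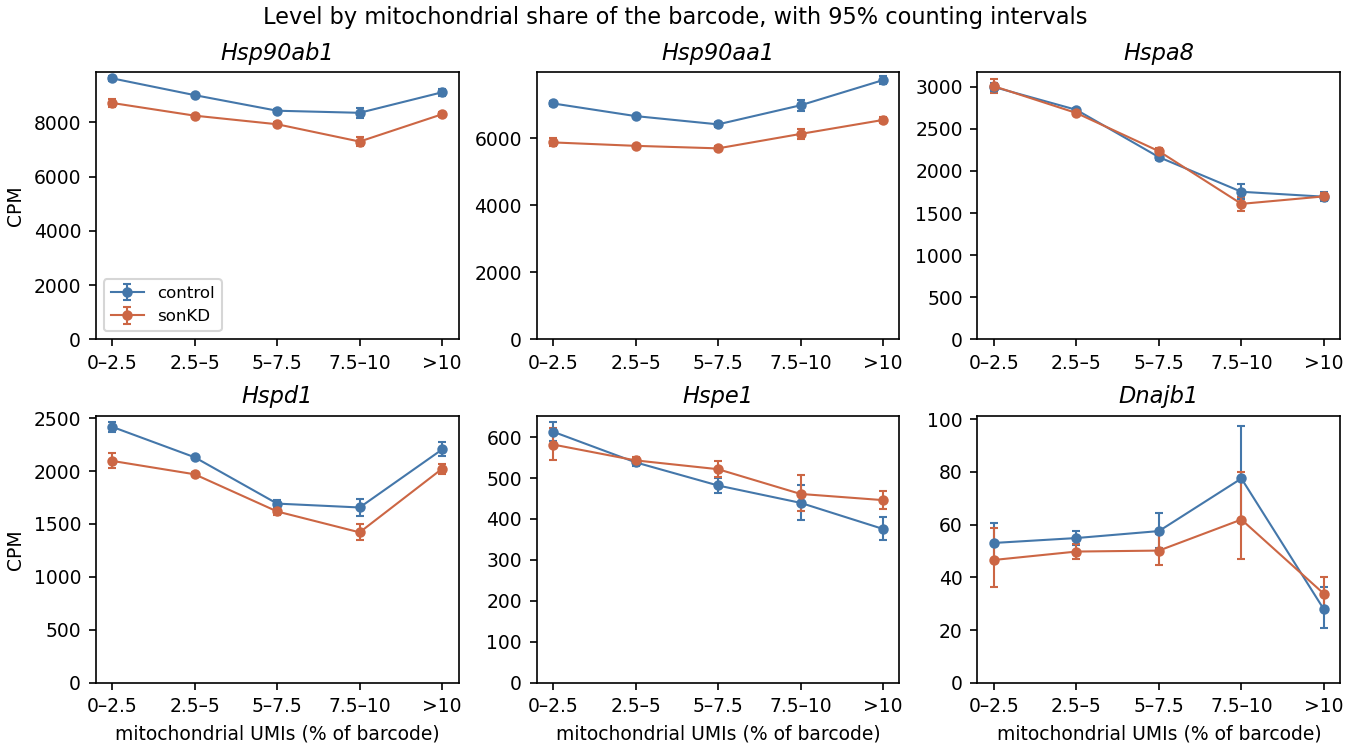
Level (CPM, with 95% counting intervals) of 6 members by the mitochondrial share of the barcode, for control and sonKD. Hspa8 goes from 2997 to 1752 CPM in control and from 3006 to 1609 CPM in sonKD over the 4 ranges of cells, whereas Hsp90aa1 stays between 5695 and 7034 CPM, and Hsp90aa1 and Hsp90ab1 lie lower in sonKD throughout.

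Free RNA was set beside each member through droplets of 100 to 500 UMIs. Hspe1 was richer there than in cells, at 998 CPM in control droplets and 963 CPM in sonKD droplets. Hspd1 was poorer, at 1323 and 1108 CPM, as was Hsph1 at 40.2 and 30.9 CPM. Dnajb1, at 52.8 and 47.6 CPM, was near its level in cells. Dnaja1 had 562 CPM in control droplets, above the 505.0 of control cells. In sonKD droplets it had 437 CPM, below the 469.6 of sonKD cells, with intervals apart in both libraries. The HSP60 and HSP10 genes thus lay on opposite sides of their levels in cells.

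Other genes of the chaperone network were read from lists, given by counts of genes above 10 CPM. These counts stand beside 74.9% lower and a median of -0.12 over all 8063 genes of that level. Of the 3 regulators of the heat shock factors, Hsf1, the factor itself, had 12.9 CPM in control and 10.8 CPM in sonKD (log2 ratio -0.25, -0.45 to -0.05), Hsbp1, a small protein that binds HSF1, had 0.27 (0.23 to 0.32), and 2 of 3 were lower. Of 15 HSP90 cochaperones 13 were lower and 2 higher, with a median of -0.12. Stub1, a ubiquitin ligase that works with HSP70 and HSP90, was the lowest at -0.58 (187.1 to 125.4 CPM), followed by Ppid at -0.27. Stip1, which links HSP70 to HSP90, stood at -0.24, and Ahsa1, which activates the HSP90 ATPase, at 0.21 (0.15 to 0.27). The HSP90 genes and their cofactors thus did not all take 1 direction.

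Of the 14 genes of TRiC and prefoldin, the cytosolic chamber for actin and tubulin and its helper, 12 were lower and 2 higher, with a median of -0.14. All 8 TRiC subunits lay between -0.19 and -0.11, close to Hspd1, and the prefoldin genes Pfdn4 at -0.38 and Vbp1 at -0.35 were the lowest. Of 11 other mitochondrial chaperones and proteases 8 were lower, with a median of -0.10. Hspa9, the HSP70 of the matrix, stood at -0.10, the protease gene Lonp1 at -0.47 and the iron-sulfur cochaperone gene Hscb at 0.34. The ER counterparts included Hspa5 (BiP) at -0.25 (379.4 to 317.9 CPM), Hsp90b1 (GRP94) at -0.17 and Calr (calreticulin) at -0.45, with 10 of 13 lower and a median of -0.05. Of 4 small heat shock protein genes 3 were higher, with a median of 0.41. These were Hspb11, which by its other name Ift25 is also an intraflagellar transport gene, at 0.60 (11.2 to 17.0 CPM), the crystallin gene Cryab at 0.51 (22.3 to 31.7 CPM) and Hspb2 at 0.32, while the far more abundant Hspb1 stood at -0.03 (1469 to 1442 CPM).

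Of the remaining lists, 4 of 8 other J-domain genes were lower, with Dnajc8 at 0.25 and Dnajc21 at -0.13 farthest from 0. Among 3 genes of the list of other HSP70 and HSP110 genes Hspa4 stood at -0.20 and Hspbp1, whose product binds HSP70 but is neither, at -0.11. Of 5 BAG family genes, which release clients from HSP70, 4 were lower, with Bag6 at -0.21 and Bag4 at -0.14, while Bag3, an HSF1 target, had 7.65 and 6.03 CPM and a ratio of -0.34 (-0.61 to -0.08). Of 8 immediate early genes 6 were higher and 2 lower, with a median of 0.03, Egr1 at -0.50 and Btg2 at 0.27. Of 5 nuclear RNAs 2 were higher, Neat1 at 1.36 and Snhg11 at 0.30.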

How the data were processed

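The authors deposited unnormalized UMI counts for each gene and barcode, made with Cell Ranger 7.1.0 per the file headers. The build is mm10 per the submitters' processing notes; the annotation, the treatment of intronic reads and the use of strand are not given in the sources used here. The labels name different NextSeq models in different fields. Groups were taken from the sample titles, with 1 library each. The 10 members, the gene lists and the comparisons were chosen with earlier results of these data known.

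Counts were summed over cells (the limits on UMIs, genes and mitochondrial share are given above) and scaled to CPM. Intervals are exact at 95%: Poisson for CPM, conditional binomial for ratios and Clopper-Pearson for shares, without covering cell or library variation. For spread and correlation each cell was thinned to 2500 UMIs with a fixed seed, and log counts were taken as log(1 + UMIs). The CV beyond counting is the root of the squared CV minus its Poisson part. Ratios over all genes used genes averaging 10 CPM or more. A log2 ratio past -0.25 or 0.25 served as a call, since 1 library per group allows no test. Scrublet (scanpy 1.11.5) called 3 control and 1 sonKD cells as doublets, 0.0603% and 0.0366%, which is not a working call, so doublets stayed in and their removal by rate was an alternative. TMM factors came from edgeR 4.0.16 in R 4.3.3 and other steps from Python 3.11.15, numpy 2.4.6 and scipy 1.17.1. Gene models were taken from GENCODE M21 (GRCm38, the sequence of mm10), which holds 32235 of the 32285 listed gene identifiers, and promoters from RefSeq on GRCm38.p6. The scripts were tested on simulated data.

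Named genes are all members, Son, the 2 genes of each list outside the phase lists that lie farthest from 0 among those of at least 10 CPM, the 5 genes most like and 3 least like the summed members over cells, and Hsf1, Hspa9, Hspa5, Hsp90b1, Bag3, Hspb1, Stip1 and Ahsa1. Other genes named (Hspb2, Vbp1, the zero markers and genes that share sequence with or overlap a member) were chosen after their values were seen. 1 further result is not reported here.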

Additional observations from a re-analysis of the deposited data

Results flagged for a closer look

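Barcodes of at least 2500 UMIs and 1000 genes but over 10% mitochondrial UMIs were not counted as cells. In these barcodes Hspe1 stood at 446 CPM (425 to 468) in sonKD and at 376 CPM (349 to 404) in control, and was the member whose level lay above control there with intervals apart. No test of this difference was possible with 1 library per group.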

How the results depend on the processing

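The summed level of the members, -0.14 as given above, was -0.050 with TMM factors, -0.055 with median of ratios factors and -0.067 with totals without mitochondrial and ribosomal protein genes. In the same order the median of the members was -0.029, -0.034 and -0.046, Son was -0.58, -0.59 and -0.60, and Hspa8 turned to 0.052, 0.047 and 0.036. By their construction these scalings shift every gene alike. Without a minimum level for genes, 2 members, Hspa1a and Hspa1b, passed -0.25 by their point values. The median correlation of pairs in sonKD, 0.023, was 0.043 in cells thinned to 5000 UMIs, 0.036 with another seed, 0.0088 at no more than 5% mitochondrial UMIs and 0.082 over the 6 members of at least 0.5 UMI per thinned cell, and in control, 0.046, it was 0.019 and 0.070 under the last 2 of these. The squared variation of Dnajb1 beyond counting in sonKD, 0.137, was -0.077 at no more than 5% mitochondrial UMIs, and the cause was not tested. Of the values recomputed for comparisons 39 stayed near the value given and 16 moved. Of the members' ratios 61 stayed within the counting interval of the main value and 27 moved outside it. A further 3 changed sign, which was counted only where that interval excluded 0. Hsph1, whose interval included 0, went to 0.056 with TMM factors and was not among these 3. Leaving out barcodes found in both libraries and keeping cells of 10000 to 20000 UMIs alone were alternatives chosen after seeing the data. Depth limits Hspa1a, Hspa1b, Dnajb1 and Hsph1, whose spread over cells cannot be measured well at 2500 UMIs. No paired analysis was possible because each group held 1 library, and for the same reason no replicate could be left out.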
